A study of Homo sapiens with 10 samples.

Results

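The UGT2B genes encode UDP-glucuronosyltransferases, and 7 of them (UGT2B4, UGT2B7, UGT2B10, UGT2B11, UGT2B15, UGT2B17 and UGT2B28) were followed by gene symbol among the 60642 symbols of a table of transcript levels. The table holds bulk RNA-seq profiles of 10 samples, 2 biological repeats of each of 5 lines grown from human prostate cancers. These are LNCaP, VCAP, DUCAP, PC3 and DU145. All samples were untreated cells grown in RPMI medium without phenol red and with fetal bovine serum, and they were taken while growing exponentially. LNCaP was the FGC clone, and DUCAP was a gift from another laboratory. When the comparisons were planned, DUCAP and VCAP were treated as related lines, so a trait they share does not stand for independent tumours. Each line is 1 culture lineage. A p-value here therefore weighs a difference against the spread between repeats, pooled over the 5 lines, and does not extend to prostate cancer lines in general. Levels are RSEM's TPM, the abundance of a gene's transcripts as a share of the sample's total, a measure per length that can be compared between genes, and they keep no read depth.

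Glucuronidation joins glucuronic acid from UDP-glucuronic acid to a small molecule, which makes it soluble in water and ready for export. UGT2B enzymes sit in the membrane of the endoplasmic reticulum and are most abundant in the liver. In the prostate, UGT2B15 and UGT2B17 are the members best known for conjugating testosterone, dihydrotestosterone and their reduced metabolites, which ends the action of these hormones in the cell. UGT2B7 conjugates many drugs and steroids, UGT2B4 is known for bile acids and UGT2B10 for the nitrogen of nicotine and other amines. UGT2B28 is a further steroid-conjugating member, whereas few substrates are known for UGT2B11.

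The genes arose by duplication and lie together on chromosome 4. In the RefSeq annotation of GRCh38.p14 the order was UGT2B17 (chr4:68537173-68576322), UGT2B15 (chr4:68646597-68670652), UGT2B10 (chr4:68815994-68832023), UGT2B7 (chr4:69051375-69112987), UGT2B11 (chr4:69199951-69224984), UGT2B28 (chr4:69280475-69295050) and UGT2B4 (chr4:69480165-69526014). The RefSeq promoter table held 4 of the 7 members. Their 250 bases before the transcription start are shown, and members outside that table were not searched. Like the other members, these 4 genes were all at or near 0 in DU145 and PC3. The UGT2B15 and UGT2B11 sequences are from the minus strand and the other 2 from the plus strand, each written 5′ to 3′. Capitals mark TAAACA (a core read by forkhead factors), AGGTCA (a nuclear receptor half-site) and AGAACA (a steroid receptor half-site).
UGT2B15 (GRCh38.p14, chr4:68670653-68670902, minus strand): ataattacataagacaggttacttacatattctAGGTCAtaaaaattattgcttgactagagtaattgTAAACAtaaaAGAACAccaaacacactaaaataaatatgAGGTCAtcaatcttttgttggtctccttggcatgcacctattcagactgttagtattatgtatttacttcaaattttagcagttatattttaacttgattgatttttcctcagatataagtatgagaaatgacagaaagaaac
UGT2B10 (GRCh38.p14, chr4:68815744-68815993, plus strand): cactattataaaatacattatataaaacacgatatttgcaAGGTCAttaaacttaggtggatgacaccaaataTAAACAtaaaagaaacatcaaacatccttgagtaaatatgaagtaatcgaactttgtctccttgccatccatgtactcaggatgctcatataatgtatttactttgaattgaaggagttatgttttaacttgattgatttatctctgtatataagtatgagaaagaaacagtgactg
UGT2B7 (GRCh38.p14, chr4:69096224-69096473, plus strand): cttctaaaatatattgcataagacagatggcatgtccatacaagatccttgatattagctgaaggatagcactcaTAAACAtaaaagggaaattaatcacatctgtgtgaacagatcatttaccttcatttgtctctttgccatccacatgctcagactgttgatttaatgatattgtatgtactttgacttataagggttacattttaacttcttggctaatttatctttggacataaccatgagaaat
UGT2B11 (GRCh38.p14, chr4:69214749-69214998, minus strand): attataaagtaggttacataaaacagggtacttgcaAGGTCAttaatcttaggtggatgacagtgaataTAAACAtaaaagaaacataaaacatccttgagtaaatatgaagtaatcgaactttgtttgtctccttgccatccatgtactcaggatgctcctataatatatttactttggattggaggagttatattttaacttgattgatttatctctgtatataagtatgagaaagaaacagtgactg

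A search on both strands found TAAACA in all 4 promoters, against 11.0% of 35116 RefSeq promoters of the same length. Counted from the start, its first base lay at −182 in UGT2B15, −177 in UGT2B10, −175 in UGT2B7 and −181 in UGT2B11. The longer GTAAACA, which contains TAAACA, matched UGT2B15 and none of the other three, and 2.98% of all promoters held it. UGT2B15 held 2 AGGTCA matches, UGT2B10 and UGT2B11 held 1 each and UGT2B7 held none, against 12.1% of promoters with a match. AGAACA was matched in UGT2B15 alone of the 4 and in 12.4% of promoters. The letters TTTATG, a CDX core, gave 2 matches in UGT2B15, 1 in UGT2B10, 2 in UGT2B7 and 3 in UGT2B11, against 9.64% of promoters with any, and in each gene at least 1 of them shared bases with TAAACA on the opposite strand. The other match in UGT2B15 shared bases with its nuclear receptor half-site farthest from the start. The 4 sequences are not independent draws. The UGT2B10 and UGT2B11 promoters were identical at 93.1% of aligned bases and the other pairs at 68.0 to 77.8%. The RefSeq promoters used for comparison were not matched to these 4 in base composition, so the shares are a description. The starts used for UGT2B7 and UGT2B11 lie inside the annotated gene spans, and which start these lines use was not tested.

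Likeness between the transcripts sets how well reads can be told apart. Aligned GENCODE transcripts of UGT2B15 and UGT2B17 were identical at 96.4% of bases, those of UGT2B11 and UGT2B28 at 96.9% and those of UGT2B10 and UGT2B11 at 94.5%. UGT2B7 was nearest to UGT2B10 at 92.5%, and UGT2B4 was nearest to UGT2B7 at 89.2%. Of the 2035 windows of 100 bases in the UGT2B15 transcript, 252 (12.4%) also occurred in another gene of the family, and the share was 10.6% for UGT2B17. It was 9.22% for UGT2B11, 5.63% for UGT2B28, 4.55% for UGT2B10 and 0% for UGT2B7 and UGT2B4. The family here includes pseudogenes. At this length UGT2B11 shared 6.43% of its windows with the pseudogene UGT2B25P, 2.49% with UGT2B10 and 0.85% with UGT2B28. At 50 bases the shares rose to 40.5% for UGT2B11 and 26.7% for UGT2B15, and they were 6.74% for UGT2B7 and 3.12% for UGT2B4. The longest identical run was 199 bases between UGT2B15 and UGT2B17. The authors' quantifier, RSEM, divides shared reads by an estimate, so levels of UGT2B15 against UGT2B17 and of UGT2B10, UGT2B11 and UGT2B28 against each other are uncertain to that extent, and sums of each member with its nearest copy are given where they moved a value by more than the spread between repeats.

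**Figure D1:**
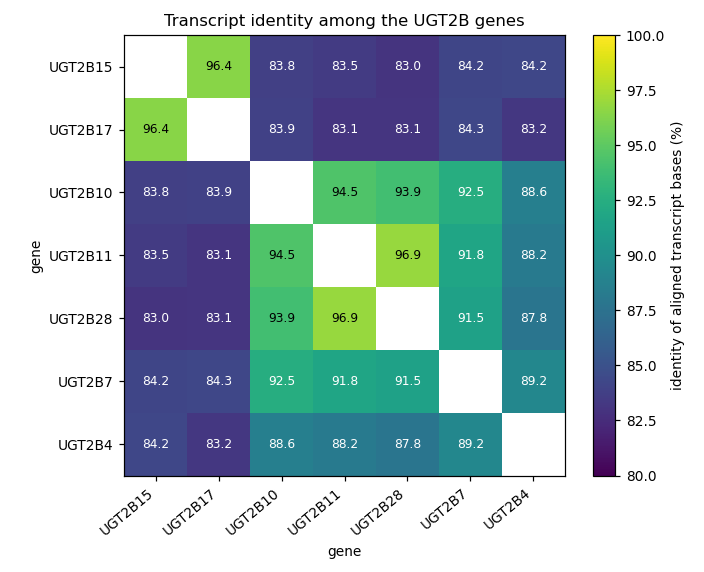
Percent of identical bases between aligned transcripts of each pair of UGT2B genes, on a colour scale from 80% to 100%. UGT2B15 and UGT2B17 form 1 pair at 96.4%, UGT2B10, UGT2B11 and UGT2B28 form a trio at 93.9 to 96.9%, and UGT2B4 is at most 89.2% identical to any other member.

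For the series as a whole, 27918 symbols were listed at 0 in every sample and 17520 had at least 1 TPM in at least 2 samples, which made them eligible for testing. No 2 columns were identical, and the 12 genes checked that every cell uses were all above 10 TPM. The 4 line markers given here (KLK3, KLK2, HOXB13 and ERG) were all higher in LNCaP, DUCAP and VCAP than in DU145 and PC3 by limma, although HOXB13 was 328 and 502 TPM in PC3 and ERG was at most 0.1 TPM in LNCaP. The 37 mitochondrial genes took 32.1 to 36.0% of the TPM in DUCAP and VCAP and 12.7 to 22.5% in the other lines, and their part in the differences below was not tested beyond the rescaling named there. LNCaP, DUCAP and VCAP against DU145 and PC3 gave 3940 higher and 9093 lower genes at a median log2 difference of −0.40, whereas quantile normalization gave 6825 higher and 6019 lower at 0.07 and median-ratio scaling 6092 and 6616. LNCaP against DUCAP and VCAP gave 8615 higher and 2711 lower at a median of 0.46, and quantile normalization 5352 and 5149 at 0. DUCAP against VCAP gave 742 higher and 2458 lower at a median of −0.12, and quantile normalization 1762 and 1811.

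UGT2B transcripts were present in LNCaP, DUCAP and VCAP and were at or near 0 in DU145 and PC3. The 7 members summed to 61.0 and 72.8 TPM in the LNCaP repeats, 58.3 and 58.4 TPM in DUCAP, and 22.8 and 28.1 TPM in VCAP. In DU145 the sum was 0 and 0.04 TPM, and in PC3 it was 0.05 and 0.4 TPM. The sum was thus of the same order in LNCaP and DUCAP and lower in VCAP, but its makeup differed between the lines. These sums are of the deposited TPM and were not rescaled, although mitochondrial genes took a larger share of it in DUCAP and VCAP. UGT2B17 made up 56.1% ± 2.05 (SD, n = 2) of the sum in LNCaP, UGT2B15 63.1% ± 2.66 in DUCAP, and in VCAP UGT2B15 at 37.6% ± 0.375 and UGT2B4 at 36.5% ± 2.80 were side by side. The other rows of the UGT2A and UGT2B family, pseudogenes included, summed to at most 0.23 TPM in any sample. In bulk RNA, fewer cells with a transcript and less of it per cell cannot be told apart.

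**Figure D2:**
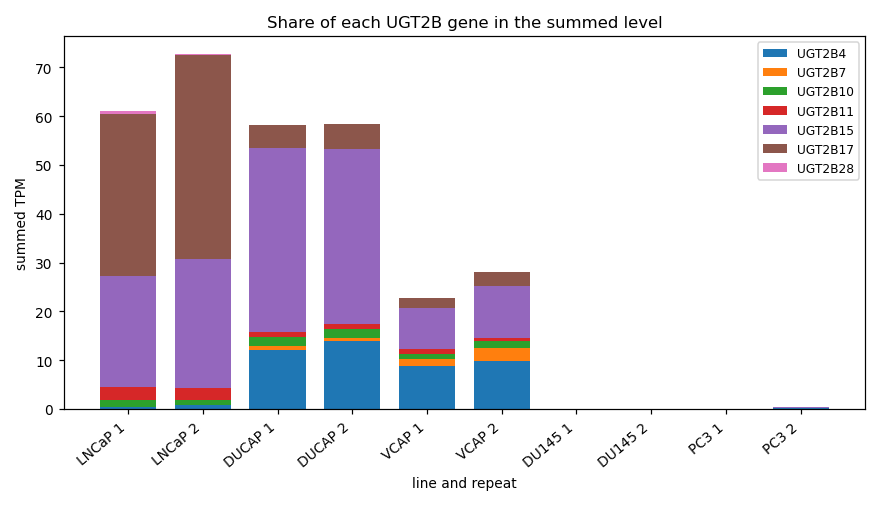
Summed TPM of the 7 UGT2B genes in each of the 10 samples, as stacked bars with 1 colour per gene. LNCaP bars (61.0 and 72.8 TPM) are mostly UGT2B17 and UGT2B15, DUCAP bars (58.3 and 58.4 TPM) mostly UGT2B15 and UGT2B4, VCAP bars (22.8 and 28.1 TPM) UGT2B15 and UGT2B4, and DU145 and PC3 have no visible bar above 0.4 TPM.

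UGT2B15 was the member found at the highest level in DUCAP and was well above 1 TPM in all of LNCaP, DUCAP and VCAP. Its level was 22.7 and 26.4 TPM in LNCaP, 37.9 and 35.8 TPM in DUCAP, and 8.5 and 10.7 TPM in VCAP. In DU145 it was listed at 0 in both repeats, and in PC3 it was 0.02 and 0.22 TPM. The groups did not overlap, since the lowest value of LNCaP, DUCAP and VCAP (8.5 TPM) stood far above the highest of DU145 and PC3 (0.22 TPM). In DUCAP, 86.6% of the tested genes had a lower level than UGT2B15, against 71.3% in LNCaP and 59.5% in VCAP. The order of the lines was DUCAP, LNCaP, VCAP, PC3 and DU145, and each step down to PC3 exceeded the spread between repeats. DUCAP stood above LNCaP by 0.57 ± 0.17 (SE) on the log2(TPM + 1) scale (adjusted p = 0.0206, limma with Benjamini-Hochberg adjustment), and LNCaP above VCAP by 1.28 ± 0.17 (adjusted p = 0.000323, limma). PC3 and DU145 were not told apart by limma.

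UGT2B17, the closest relative of UGT2B15, had its highest level in LNCaP. It was 33.3 and 41.9 TPM there, 4.7 and 5.16 TPM in DUCAP and 2.06 and 2.84 TPM in VCAP. It was listed at 0 and 0.04 TPM in DU145 and at 0 in both PC3 repeats. LNCaP stood above DUCAP by 2.69 ± 0.18 (SE, adjusted p = 6.44e-06, limma), and VCAP above DU145 by 1.75 ± 0.18 (adjusted p = 4.51e-05, limma). In LNCaP, 79.4% of the tested genes were lower than UGT2B17, against 50.2% in DUCAP and 35.2% in VCAP.

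The balance of these 2 androgen-conjugating genes turned over between lines. In LNCaP the ratio of UGT2B17 to UGT2B15 was 1.47 and 1.58, whereas DUCAP had ratios of 0.124 and 0.144 and VCAP of 0.242 and 0.267. Both LNCaP ratios lay above 1 and all 4 DUCAP and VCAP ratios below 0.3, a gap of 3.05 in the mean log2 ratio. With 2 samples against 4, an exact two-sided permutation test can go no lower than p = 0.067 over its 15 arrangements, and it gave that value. Summed, the pair reached 56.0 and 68.3 TPM in LNCaP, 42.6 and 40.9 TPM in DUCAP and 10.6 and 13.5 TPM in VCAP. On the deposited scale the sum did not overlap between any 2 of these lines, and it was not rescaled. How RSEM divided reads within the pair was not tested.

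UGT2B4 was lowest in LNCaP among the 3 expressing lines, where UGT2B17 was highest. It was 12.2 and 13.9 TPM in DUCAP and 8.76 and 9.71 TPM in VCAP, but 0.31 and 0.77 TPM in LNCaP. DU145 had 0 in both repeats and PC3 0.03 and 0.1 TPM. LNCaP thus sat nearer to PC3 than to DUCAP or VCAP. The step from VCAP down to LNCaP was 2.75 ± 0.17 (SE, adjusted p = 5.76e-06, limma) and that from LNCaP to PC3 0.52 ± 0.17 (adjusted p = 0.0331, limma). DUCAP and VCAP were not told apart by the test (0.46 ± 0.17, adjusted p = 0.113, limma), although their repeats did not overlap. Of the members, UGT2B4 was also the one with the smallest share of 50-base windows in common with its relatives, and its level summed with UGT2B7 kept the LNCaP gap (−3.08 against −2.98 alone).

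UGT2B7, UGT2B10 and UGT2B11 were low in every line. UGT2B7 was 1.51 and 2.67 TPM in VCAP, 0.79 and 0.67 TPM in DUCAP, 0.05 and 0.1 TPM in LNCaP, 0 in both DU145 repeats and at most 0.03 TPM in PC3. It reached 1 TPM in VCAP only, and it was the member whose order ran VCAP, DUCAP, LNCaP. VCAP exceeded DUCAP by 0.81 ± 0.17 (SE, adjusted p = 0.0129, limma) and DUCAP exceeded LNCaP by 0.69 ± 0.17 (adjusted p = 0.00757, limma).

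UGT2B10 was 1.49 and 1.03 TPM in LNCaP, 1.73 in both DUCAP repeats, and 0.95 and 1.47 TPM in VCAP. Neither the DUCAP and LNCaP pair nor the LNCaP and VCAP pair was told apart (adjusted p = 0.146 and 0.878, limma), although both DUCAP values lay above both LNCaP values. Of the tested members, UGT2B10 was the most even over these lines. UGT2B11 was 2.65 and 2.31 TPM in LNCaP, 0.99 and 1.14 TPM in DUCAP, and 0.96 and 0.73 TPM in VCAP, and it shared with UGT2B17 a lead of LNCaP over DUCAP (0.75 ± 0.12, SE, adjusted p = 0.000758, limma). UGT2B11 passed the filter through LNCaP, so its lead there is a description. UGT2B10 and UGT2B11 were at 0 in DU145 and at most 0.03 TPM in PC3. UGT2B28 was 0.48 and 0.27 TPM in LNCaP, at most 0.06 TPM in DUCAP and VCAP and 0 in all DU145 and PC3 samples. It did not pass the filter, and 96.9% identity with the more abundant UGT2B11 leaves its low LNCaP values uncertain. Of the UGT2B28 windows, 0.97% at 100 bases and 20.4% at 50 bases also occurred in UGT2B11.

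**Figure D3:**
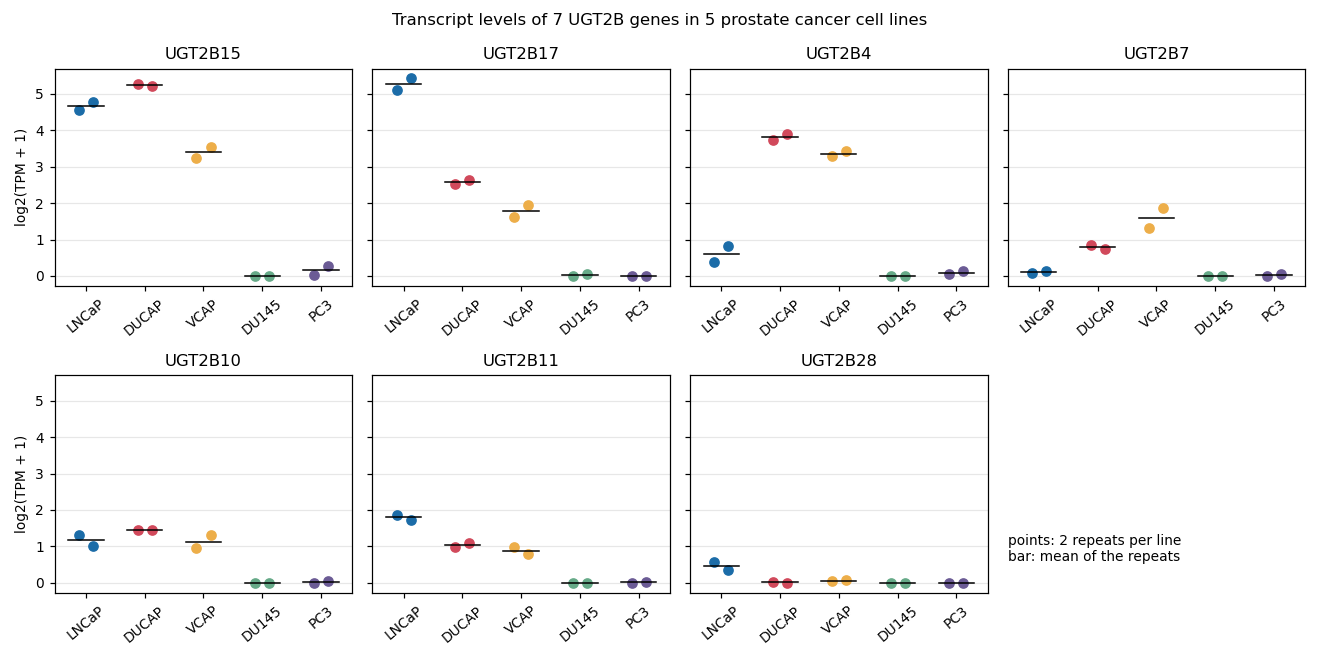
Levels of the 7 UGT2B genes on the log2(TPM + 1) scale, with 1 point per repeat and a bar at the mean of the 2 repeats of each line. UGT2B15 peaks in DUCAP (37.9 and 35.8 TPM), UGT2B17 in LNCaP (33.3 and 41.9 TPM), UGT2B4 in DUCAP and VCAP (8.76 to 13.9 TPM), and all DU145 and PC3 points lie at or near 0.

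The comparison of LNCaP, DUCAP and VCAP with DU145 and PC3 sets the lines with the secreted prostate proteases KLK2 and KLK3 at 28.3 TPM or more against those with at most 0.77 TPM of either. The 6 tested members were all called higher, whereas 22.5% of all tested genes were called higher, 51.9% lower and 74.4% in either direction. All 6 also had groups that did not overlap, as did 6.92% of tested genes in that direction and 19.8% in the other. Each of the 6 passed the filter through its levels in LNCaP, DUCAP or VCAP alone, so a difference in this direction was built into passing, and these counts describe the members without standing as evidence. The size of the differences ranged widely. On the log2(TPM + 1) scale, which understates the change of low genes, UGT2B15 differed by 4.36 ± 0.11 (SE, adjusted p = 1.9e-08, limma), UGT2B17 by 3.19 ± 0.11 (adjusted p = 7.85e-08) and UGT2B4 by 2.55 ± 0.11 (adjusted p = 2.67e-07). UGT2B10 and UGT2B11 differed by 1.24 ± 0.098 and 1.23 ± 0.077, and UGT2B7 by 0.82 ± 0.11 (adjusted p = 0.000166, limma). The UGT2B15 and UGT2B17 sum differed by 4.94, the UGT2B10 and UGT2B11 sum by 1.91 and the UGT2B7 and UGT2B10 sum by 1.67.

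LNCaP against DUCAP and VCAP separated the members into 3 kinds. UGT2B17 (3.09 ± 0.15, SE, adjusted p = 1.17e-06, limma) and UGT2B11 (0.83 ± 0.10, adjusted p = 0.000157, limma) were higher in LNCaP. UGT2B4 (−2.98 ± 0.15, adjusted p = 1.39e-06, limma) and UGT2B7 (−1.09 ± 0.15, adjusted p = 0.000241, limma) were lower. These 4 called members of 6 stood beside 64.6% of all tested genes, with 49.2% called higher and 15.5% lower, so the share called was near the background. The same 4 had groups that did not overlap, 2 higher (53.0% of tested genes) and 2 lower (16.4%). UGT2B4 reached 1 TPM in DUCAP and VCAP alone and UGT2B7 in VCAP alone, so passing the filter already leaned both towards lower levels in LNCaP, and their calls are a description. UGT2B11 passed the filter through LNCaP, with 1.14 TPM in DUCAP repeat 2 the only other value at 1 TPM or more. Passing thus leaned UGT2B11 towards higher levels in LNCaP, and its call is a description too. The median tested gene was itself 0.46 higher in LNCaP, and UGT2B17, UGT2B11, UGT2B4 and UGT2B7 kept their direction and call under each of the 3 other scalings, although UGT2B11 fell to 0.38 under quantile normalization and 0.44 under median-ratio scaling.

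UGT2B15 and UGT2B10 did not pass the test in this comparison. UGT2B15 was 0.35 ± 0.15 higher in LNCaP (SE, adjusted p = 0.0686, limma), but −0.25 under quantile normalization and −0.28 under median-ratio scaling, and its LNCaP values lay between those of VCAP and DUCAP. Without VCAP replicate 2 it was called at 0.43 (adjusted p = 0.0438, limma, the lowest of 0.0438 to 0.694 over all alternatives). UGT2B10 was −0.12 ± 0.13 (adjusted p = 0.447, limma), and it was called lower under quantile normalization (−0.59, adjusted p = 0.00962) and median-ratio scaling (−0.52, adjusted p = 0.0111), over a range of 0.00962 to 0.923. All sums with a near copy were taken on the deposited TPM only, so their values under the other scalings are not known. The UGT2B15 and UGT2B17 sum was 1.42 higher in LNCaP, between the values of the genes alone (0.35 and 3.09). The UGT2B10 and UGT2B11 sum was 0.47 higher where UGT2B10 alone was −0.12, the UGT2B11 and UGT2B28 sum was 0.96 higher, and the UGT2B7 and UGT2B10 sum was −0.72.

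DUCAP and VCAP differed in 3 of the 6 tested members, against 18.3% of all tested genes. UGT2B15 (1.85 ± 0.17, SE, adjusted p = 0.00028, limma) and UGT2B17 (0.79 ± 0.18, adjusted p = 0.0171, limma) were higher in DUCAP, where 4.24% of genes were called higher, and UGT2B7 (−0.81 ± 0.17, adjusted p = 0.0129, limma) was lower, as were 14.0%. UGT2B7 passed the filter through VCAP alone, the line where it was high, so its call is a description. UGT2B4, UGT2B10 and UGT2B11 differed by 0.46 ± 0.17, 0.31 ± 0.15 and 0.16 ± 0.12 and were not called. Summed with UGT2B15, the UGT2B17 value was 1.72, summed with UGT2B10 the UGT2B7 value was −0.29, and summed with UGT2B7 the UGT2B4 value was 0.27. In all, 5 members had DUCAP values above both VCAP values, as did 17.9% of tested genes, and UGT2B7 had both values below, as did 41.1%. The UGT2B17 and UGT2B7 calls rested on few samples. Leaving out DUCAP replicate 1 or 2 ended both (adjusted p = 0.0727 and 0.0960 for UGT2B17 and 0.0634 and 0.0807 for UGT2B7, limma), and leaving out VCAP replicate 1 ended that of UGT2B17 (0.0920). Over all alternatives the adjusted p ran from 0.00598 to 0.0960 for UGT2B17 and from 0.00221 to 0.124 for UGT2B7. Under quantile normalization the called members were UGT2B15, UGT2B17, UGT2B4, UGT2B10 and UGT2B11, and UGT2B7 was not (−0.60, adjusted p = 0.0788).

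DU145 and PC3 did not differ in any of the 6 tested members by limma, with 0 at an unadjusted p under 0.05 as well, while 49.3% of all tested genes were called, 23.8% higher and 25.5% lower in DU145. The differences lay between −0.16 and 0.03 and every level was at most 0.22 TPM, so there was little left to compare. The UGT2B15 and UGT2B17 sum differed by −0.13. PC3 was above both DU145 zeros in both repeats for UGT2B15 (0.02 and 0.22 TPM) and UGT2B4 (0.03 and 0.1 TPM), a non-overlap seen in 36.3% of tested genes, with 34.9% the other way and no member among them.

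**Figure D4:**
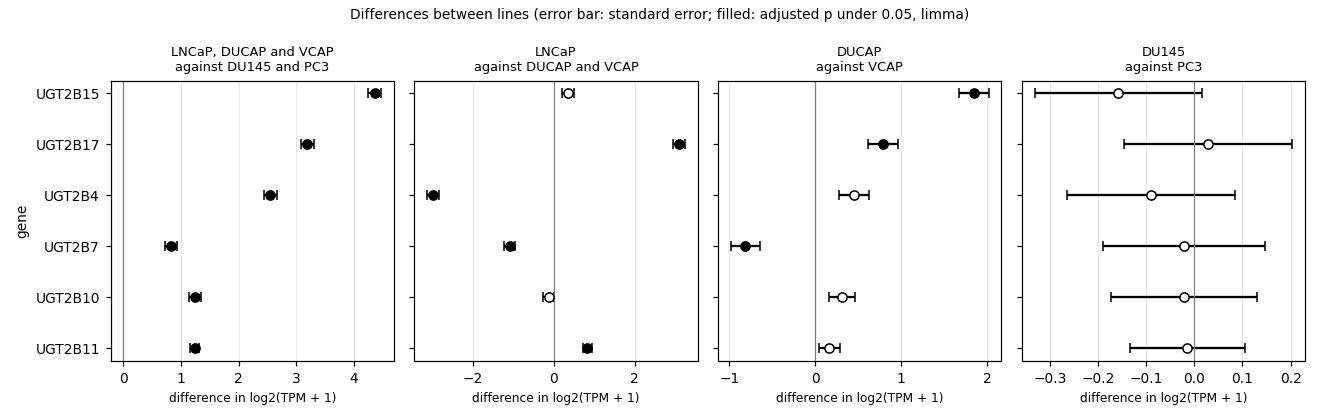
Difference in log2(TPM + 1) of the 6 tested UGT2B genes in 4 comparisons of lines, each panel with its own axis, with standard errors as bars and filled points for an adjusted p under 0.05 (limma). All 6 points are filled and above 0 in the first panel (0.82 to 4.36), UGT2B17 (3.09) and UGT2B4 (−2.98) stand on opposite sides in the second, and no point is filled in the fourth.

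Genes with the most similar pattern to each member were ranked by Pearson's r of log2(TPM + 1) over the 10 samples, which are 5 pairs of repeats, and r is given as a description. For UGT2B15 they were ZNF300 (0.990), AC015921.1 (0.988) and TMEFF2 (0.988), a zinc finger gene, an uncharacterised transcript and a transmembrane protein gene of the prostate and brain. For UGT2B17 they were PKNOX2 (0.993), AL024508.1 (0.992) and FAM83F (0.988). UGT2B11 also had AL024508.1 (0.993) among its 3, with AC087752.3 (0.997) and AF241728.2 (0.993). For UGT2B4 they were CRISP3 (0.997), a secreted cysteine-rich protein, AC024588.1 (0.995) and KIAA1324 (0.995). UGT2B7 had PCP4 (0.990), SYTL5 (0.989) and GPR149 (0.989), and UGT2B10 had AC010273.3 (0.987), DDTL (0.985) and ELF5 (0.982), an epithelial ETS factor. Among the members themselves, UGT2B17 and UGT2B11 were alike (r = 0.978, rank 17 among the genes nearest UGT2B17), as were UGT2B15 and UGT2B10 (0.974, rank 19 for UGT2B15). UGT2B17 and its near copy UGT2B15 stood at 0.841, and UGT2B17 and UGT2B4 at 0.237. UGT2B17 thus tracked UGT2B11 more closely than its near copy.

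The other UDP-glucuronosyltransferases were mostly not expressed. Of 15 listed genes of the UGT1, UGT2A, UGT3 and UGT8 groups, 2 passed the filter. UGT1A1, the bilirubin-conjugating enzyme, was 2.84 and 3.34 TPM in PC3, 0 in DU145 and at most 0.38 TPM in LNCaP, DUCAP and VCAP, and the group difference from DU145 and PC3 rested on PC3, with DU145 at 0 (−0.79 ± 0.088, SE, adjusted p = 5.37e-05, limma). UGT1A1 passed the filter through PC3 alone, so its call in this comparison is a description. UGT8, which adds galactose to ceramide and not glucuronic acid, was 1.99 and 1.73 TPM in LNCaP and between 3.88 and 27.1 TPM in every other sample (0.26 ± 0.13 in the same comparison, adjusted p = 0.116, limma). Under quantile normalization and median-ratio scaling UGT8 was called higher (0.81 and 0.70, adjusted p = 0.000308 and 0.000829, limma), as it was after rescaling without mitochondrial genes (0.48, adjusted p = 0.0106). UGT1A1 shares its last exons with its UGT1A neighbours, so its level is uncertain against theirs. In PC3 UGT1A1 was thus the main UDP-glucuronosyltransferase for glucuronic acid among the genes listed, at a level under that of UGT2B4 in DUCAP.

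Genes that supply UDP-glucuronic acid or handle glucuronides did not follow the UGT2B genes. Of 10 listed, all passed the filter, and LNCaP, DUCAP and VCAP had 1 called higher and 9 lower than DU145 and PC3. Among all tested genes, 22.5% were called higher and 51.9% lower. ABCC2 (1.26 and 1.97 TPM in DU145) and ABCG2 (2.44 and 2.92 TPM) passed the filter through DU145 alone, so their calls are a description. The median of the list was −0.96 against −0.40 for all tested genes. Under quantile normalization and median-ratio scaling 1 was higher and 7 lower, with ABCC1 and GUSB no longer called. UGDH, which makes UDP-glucuronic acid, was 355 and 265 TPM in DU145 and 44.8 to 78.7 TPM in all other lines. The 2 largest decreases were those of ABCC3, an exporter of conjugates (−5.83 ± 0.26, SE, adjusted p = 3.04e-07, limma), at 164 and 62.5 TPM in DU145, 72.8 and 93.4 TPM in PC3 and at most 2.83 TPM elsewhere, and of UXS1, which turns UDP-glucuronic acid into UDP-xylose (−1.91 ± 0.095, adjusted p = 5.04e-07, limma). ABCC4, another exporter of conjugated steroids, was the 1 increase (1.54 ± 0.11, adjusted p = 4.75e-06, limma), at 39.6 to 85.6 TPM in LNCaP, DUCAP and VCAP and 15.1 to 22.0 TPM in DU145 and PC3. DU145 thus had the highest UGDH level and a UGT2B sum of 0 TPM in 1 repeat and 0.04 TPM in the other.

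Of 19 other enzymes that inactivate or interconvert androgens, 11 were tested, and 3 were higher, 5 lower and 3 not called in LNCaP, DUCAP and VCAP, with a median of −0.31 that was close to the −0.40 of all tested genes. HSD17B6, which oxidises androstanediol back to dihydrotestosterone, was 21.5 and 22.9 TPM in VCAP, 5.62 and 5.05 TPM in DUCAP and 1.04 and 0.86 TPM in LNCaP, against 4.01 and 1.16 TPM in DU145 and 0.25 and 0.68 TPM in PC3 (1.59 ± 0.23, SE, adjusted p = 0.000244, limma). Both LNCaP values lay below both DU145 values, so LNCaP did not share the group difference, and the order VCAP, DUCAP, LNCaP was the reverse of that of UGT2B17. SULT2B1, a sulfotransferase of hydroxysteroids, was 14.9 and 14.6 TPM in LNCaP and at most 0.19 TPM in DUCAP and VCAP, with 1.68 and 0.28 TPM in DU145 and at most 0.12 TPM in PC3 (0.92 ± 0.19 for LNCaP, DUCAP and VCAP against DU145 and PC3, adjusted p = 0.00207, and 3.85 ± 0.25 in LNCaP against DUCAP and VCAP, adjusted p = 4.77e-06, limma). The SULT2B1 difference rested on LNCaP, since both DU145 values exceeded all those of DUCAP and VCAP. HSD17B2, which oxidises testosterone, was 15.0 and 26.2 TPM in PC3 and at most 0.4 TPM in the other lines (−2.05 ± 0.15, adjusted p = 4.15e-06, limma). SULT2B1 passed the filter through LNCaP and HSD17B2 through PC3, the lines where they were high, so their calls are a description. AKR1C1, which reduces dihydrotestosterone, was 12.1 and 4.85 TPM in DU145, 4.77 and 1.3 TPM in PC3 and at most 1.17 TPM in LNCaP, DUCAP and VCAP. The difference was −1.65 ± 0.31 (adjusted p = 0.00133, limma), although PC3 repeat 2 lay close to the other group. The AKR1C neighbours of AKR1C1 are near copies. PC3 and DU145 therefore held other androgen-metabolising transcripts while their UGT2B levels were at or near 0.

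Of 12 transcription factors linked to UGT genes in liver, intestine or prostate, 7 were tested, and 4 were higher, 1 lower and 2 not called in LNCaP, DUCAP and VCAP, with a median of 0.55 against −0.40 for all tested genes (5 higher and 1 lower under each of the other 3 scalings). FOXA1, a forkhead factor of prostate epithelium, was 142 to 245 TPM in LNCaP, DUCAP and VCAP and 37.6 to 118 TPM in DU145 and PC3 (1.53 ± 0.094, SE, adjusted p = 1.6e-06, limma). FOXA2 was 36.7 and 32.1 TPM in PC3, 0.58 and 0.76 TPM in DU145 and at most 0.09 TPM elsewhere (−2.88 ± 0.085, adjusted p = 3.07e-08, limma). FOXA2 passed the filter through PC3 alone, so its call is a description. CDX2, a homeobox factor of the intestine, was 3.28 and 2.79 TPM in DUCAP, 4.56 and 3.54 TPM in VCAP and at most 0.04 TPM in LNCaP, DU145 and PC3 (1.45 ± 0.088, adjusted p = 1.46e-06, limma). CDX2 and UGT2B4 thus had the same 2 lines on top. LNCaP against DUCAP and VCAP gave −2.14 ± 0.12 for CDX2 (adjusted p = 2.05e-06, limma), beside −2.98 for UGT2B4 and −1.09 for UGT2B7. CDX2 and UGT2B4 reached 1 TPM in DUCAP and VCAP alone, so passing the filter leaned both towards this pattern, and the match is a description. A link between CDX2 and the UGT2B genes was not tested, and the UGT2B4 promoter was not among those searched. HNF4A, a regulator of liver genes, was at most 0.04 TPM in all 10 samples.

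DUCAP and VCAP also carried transcripts of liver marker genes. The 5 liver markers summed to 26.1 and 40.5 TPM in DUCAP and 30.2 and 45.0 TPM in VCAP, against 2.94 and 3.14 TPM in LNCaP and at most 1.77 TPM in DU145 and PC3. Of the 5, ALB (14.3 to 27.8 TPM) and TTR (11.8 to 17.2 TPM) made up these sums, whereas APOB was at 0 in all 10 samples, FGB was at 0 in LNCaP, DUCAP and VCAP, and APOA1 was at most 0.04 TPM in DUCAP and VCAP. UGT2B4, ALB and TTR all had DUCAP and VCAP on top. The mean was higher in DUCAP than in VCAP for UGT2B4 but lower for ALB and TTR. UGT2B4 and ALB reached 1 TPM in DUCAP and VCAP alone, so passing the filter leaned both towards this pattern, and the match is a description. The part of ALB and TTR in the UGT2B4 level was not tested. Stroma and blood markers, 5 in all, summed to at most 7.28 TPM outside PC3, where they reached 35.9 and 47.4 TPM. The collagen genes COL1A1 (31.5 and 38.0 TPM) and COL3A1 (3.61 and 8.45 TPM) made up most of the PC3 sums. DCN, PTPRC and PECAM1 were at most 0.43 TPM in PC3.

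**Figure D5:**
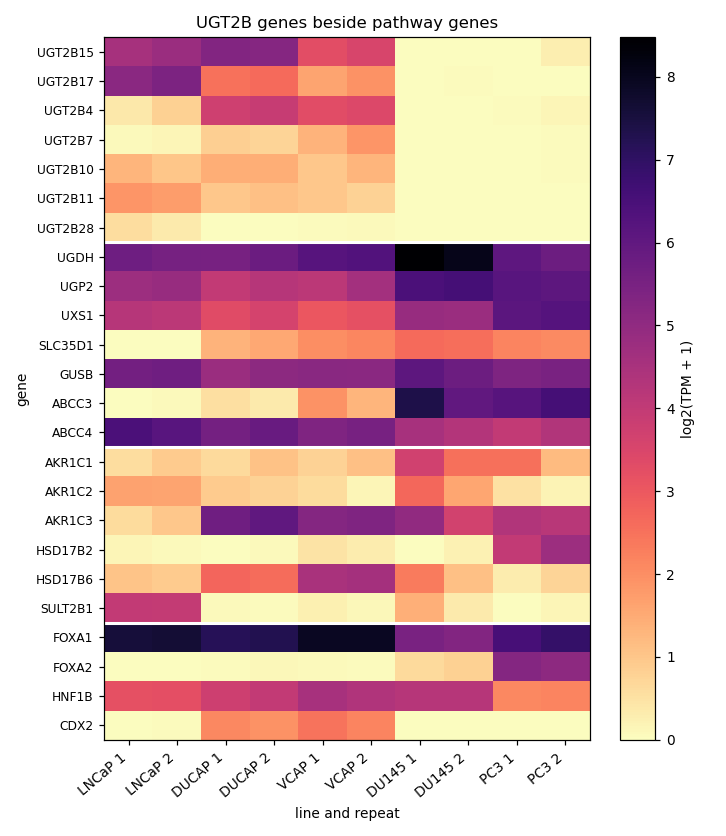
Heat map of log2(TPM + 1) for the 7 UGT2B genes above genes of UDP-glucuronic acid supply and export, other androgen-metabolising enzymes and transcription factors, with 1 column per sample. The UGT2B rows are pale in all DU145 and PC3 columns (at most 0.22 TPM), where UGDH in DU145 (355 and 265 TPM) and ABCC3 in both lines (62.5 to 164 TPM) are dark, and CDX2 is above 2 TPM only in the DUCAP and VCAP columns.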

How the data were processed

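Bulk RNA-seq of 5 untreated lines, 2 biological repeats each, was analysed by the line and repeat number in the labels. The authors trimmed reads (FastQC 0.11.9, Trim Galore 0.6.5), aligned them to GRCh38 with STAR 2.7.2b, quantified genes with RSEM 1.3.3 and deposited TPM values, shares per transcript length whose depth is unknown. From these, log2(TPM + 1) was computed, and the 17520 genes that reached 1 TPM in 2 samples or more were fitted with limma 3.58.1 in R 4.3.3 (a coefficient per line, all 10 samples, a variance trend, Benjamini-Hochberg adjustment at 0.05 over all genes). The members, gene lists and tests were chosen with earlier results of these data known. Named genes were the 7 members, the markers, and of each list the 2 largest called changes in each direction between LNCaP, DUCAP and VCAP and the other 2 lines, with the 3 genes most like each member. UGDH, UGT8, HNF4A and the liver markers ALB, TTR, APOB, FGB and APOA1 were added after their values were seen. So were the stroma and blood markers COL1A1, COL3A1, DCN, PTPRC and PECAM1.

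On simulated data for LNCaP, DUCAP and VCAP against DU145 and PC3, 93% of 200 genes changed by 1.5 (log2) among 17520 were recovered, 0 with the wrong sign, and 2.62% of calls were false. Each simulated gene had the same mean in all lines before the change, with normal noise. Far fewer genes changed than were called in the data, so these rates check the fit and do not carry over to the data. Transcript identity was computed on GENCODE transcripts with Biopython 1.88, in place of a planned protein comparison, and positions and promoters are from RefSeq, GRCh38.p14. Besides the 4 comparisons, neighbouring lines in each member's order were tested in the same fit. Alternatives were a pseudocount of 0.1, no filter, a filter at 5 TPM, quantile and median-ratio scaling, rescaling without mitochondrial genes, no variance trend, only the lines compared, the repeat number as a block, each sample left out, and sums with the nearest paralog. Python 3.11.15, numpy 2.4.6, pandas 2.3.3 and matplotlib 3.10.9 were used. Some listed genes are not reported here and were left out of the list counts.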

Additional observations from a re-analysis of the deposited data

How the results depend on the processing

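Between LNCaP, DUCAP and VCAP and the other lines, 107 of 111 member values under the alternatives were unchanged. Unchanged meant the same direction and side of the threshold or, for sums with a near copy, a shift smaller than the spread between repeats. Such sums carry no test, and the other 4 values were sums that shifted further. The counts were 106 of 117 for LNCaP against DUCAP and VCAP, 102 of 117 for DUCAP against VCAP and 116 of 117 for DU145 against PC3. A 5 TPM filter left 3 called members in the first comparison and 2 in the second, since it removed low members. For LNCaP against DUCAP and VCAP, UGT2B15 turned to −0.25 under quantile normalization and −0.28 under median-ratio scaling, and UGT2B10 ranged from −0.27 to 0.025 with 1 sample left out (0.025 without LNCaP replicate 2); the cause was not tested. For DUCAP against VCAP, quantile normalization called 5 members, a fit of these lines alone called 1 member and 1610 genes, and leaving out 1 sample gave 1 to 3 members and 1373 to 4819 genes (1373 and 1753 without DUCAP replicate 1 or 2, 2035 without VCAP replicate 1, 4819 and 4808 without DU145 replicate 1 or 2). DU145 against PC3 fitted alone called 5403 genes. Without a filter, UGT2B28 was tested and higher in LNCaP than in DUCAP and VCAP by 0.42 (adjusted p = 0.0011, limma). The repeat numbers did not pair the samples (mean r of repeat differences between lines 0.00922, −0.191 to 0.249), and with the replicate block 13007, 11289, 2939 and 8525 genes and 6, 4, 3 and 0 members were called in the 4 comparisons, so the block moved no count of calls by over 1.5 times. With 2 repeats per line, the spread and the unknown depth limit the low members.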
